A study of Mus musculus with 23 samples.

Results

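The comparison described here set 2 libraries from mice sampled 12 h after doxorubicin against 2 libraries from untreated mice at 0 h, out of 23 libraries of mouse proximal small intestine. The libraries were chosen by their labels for feeding, drug and time. All 4 came from mice fed ad libitum and labelled male. In each condition 1 library was wild type and 1 was Ddit4 knockout (Ddit4-/-), and the knockout was compared with the knockout and the wild type with the wild type. Doxorubicin was injected intraperitoneally at 20 mg/kg. The labels do not say how the Ddit4 allele was made or how old the mice were. Each condition and genotype had 1 library, so the genotypes stood in for replicates, and a p-value reflects no more than the variation among these samples. No untreated library at 12 h was analysed here, so the drug, the hours since injection and the time of day cannot be told apart. Other doxorubicin libraries were used for comparison, with 1 wild-type and 1 knockout library per group. The groups were 6 h ad libitum, 24 h ad libitum and 12 h in prefasted mice. The prefasted mice had fasted for 24 h before the drug and are labelled as fasted and refed. Summed levels of some lists are also given for untreated libraries, from mice fasted for 24 h and from fasted and refed mice.

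Doxorubicin is an anthracycline that traps topoisomerase II on DNA and causes strand breaks. In the small intestine, dividing cells lie in the crypts, where stem cells sit between Paneth cells, which secrete antimicrobial peptides. Their descendants move up the villus and become absorptive enterocytes, which carry digestive enzymes and nutrient transporters on a brush border. Ddit4 encodes REDD1, a stress-induced inhibitor of the growth kinase complex mTORC1.

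Ddit4 was measured at 230 normalized reads in the wild-type library and 0 in the knockout library at 12 h, and at 180.4 normalized reads in the wild-type library and 0 in the knockout library at 0 h. Normalized reads are counts divided by 1 size factor per library. The knockout labels of both conditions therefore had the low Ddit4 that they name. Library totals were 14009032 and 22103214 reads at 12 h (wild type, knockout) and 15524351 and 14527872 reads at 0 h. Values are given below in this order of genotypes within each condition. The untreated knockout library had 0 reads summed over Uty, Kdm5d, Eif2s3y and Ddx3y, which lie on the Y chromosome, although it is labelled male, whereas the other 3 libraries had 1406 to 1725 such reads. Counts of list members and the adjusted p of main examples are therefore also given without it. Enterocyte markers were abundant in all 4 libraries, with Alpi at 88150 and 146500 normalized reads at 12 h and 59900 and 69530 at 0 h, and the proximal intestinal factor Gata4 was present at 3306 and 3882 at 12 h and 3242 and 2701 at 0 h. The neutrophil marker S100a8 was at 0 in all 4.

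At 12 h, 1074 of 11939 genes tested differed from untreated intestine, which is 9% of them (limma on log2(normalized reads + 1), Benjamini-Hochberg adjusted p under 0.05). Of these, 571 rose (4.78% of the genes tested) and 503 fell (4.21%), and the median log2 change of all genes was -0.008. The largest rises were in genes of the circadian clock and of the glucocorticoid response, with the organic acid transporter Slc13a2, and the largest falls were in the crypt stem cell gene Olfm4, the cell cycle genes E2f2 and Ccnb2, and the Sprr2a genes. Leaving out the untreated knockout library lowered the counts to 137 genes that rose (1.15%) and 73 that fell (0.611%). Of the 12 largest rises 8 stayed past the threshold without it, and of the 12 largest falls 9 did. The total of 1074 also depended on the other 3 libraries of the comparison: it was 145 without the knockout library at 12 h, 338 without the untreated wild-type library and 387 without the wild-type library at 12 h.

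**Figure D1:**
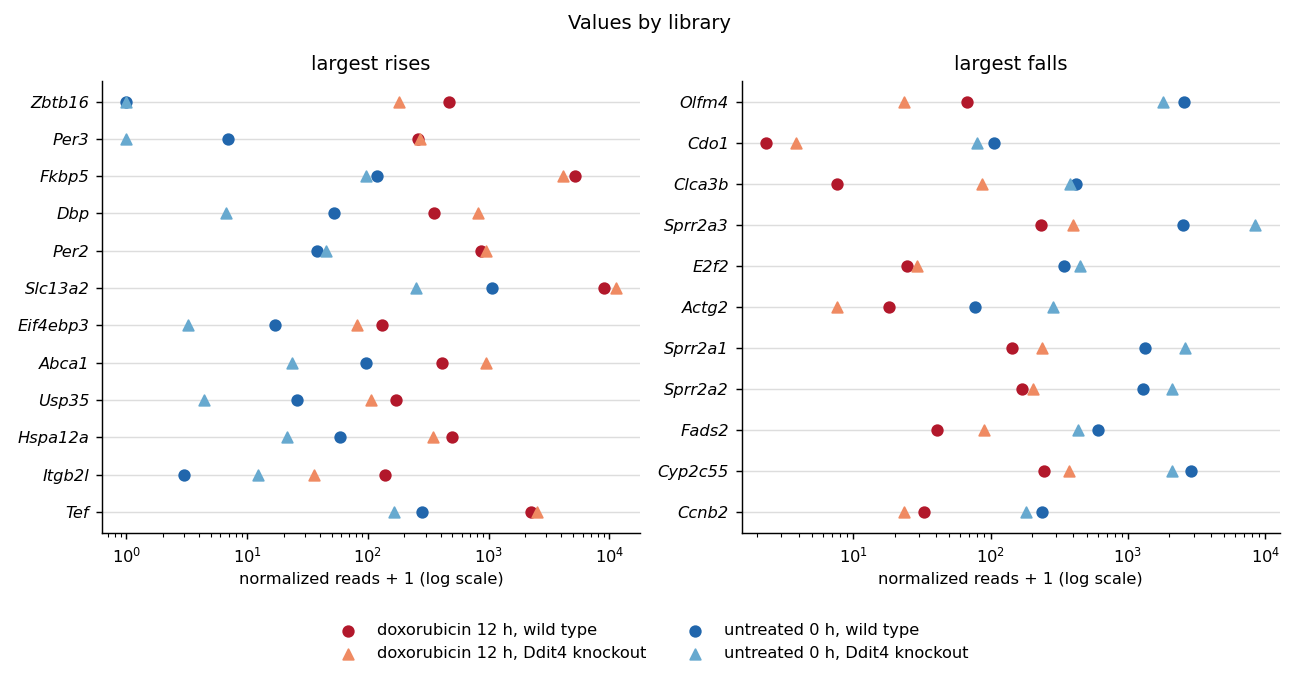
Normalized reads + 1 on a log axis for the 12 largest rises (left) and 11 of the 12 largest falls (right), with 1 point per library: doxorubicin 12 h in red and orange, untreated 0 h in blue, circles for wild type and triangles for Ddit4 knockout. In each row both 12 h points lie on the same side of both 0 h points, as for Per2 at 870.2 and 943 against 36.7 and 44.0 normalized reads. The genes were chosen by adjusted p, size of change and 1 direction in both genotypes, so this separation follows largely from the choice.

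Stem cell genes of the crypt base were lower at 12 h. Olfm4, a secreted glycoprotein that marks intestinal stem cells (chr14:79984081-80023139, mm10), was measured at 65.7 and 22.4 normalized reads in the wild-type and knockout libraries at 12 h, against 2565 and 1788 at 0 h. Both 12 h values lay far below both untreated values, and Olfm4 was 54.2-fold lower (log2 -5.76 ± 0.63, SE, adjusted p = 0.00014; 0.0048 without the untreated knockout library). In bulk tissue, fewer cells of a type and less RNA per cell cannot be told apart. Smoc2, a matricellular protein of the stem cell zone, had 31.6 and 23.4 normalized reads at 12 h and 221 and 122 at 0 h (log2 -2.55 ± 0.47, adjusted p = 0.0044). Slc12a2, the basolateral sodium-potassium-chloride cotransporter of crypt cells, had 194.5 and 145 normalized reads at 12 h and 725 and 552 at 0 h (log2 -1.91 ± 0.35, adjusted p = 0.0044). In both genes all 12 h values were below all untreated ones. Most genes named here and below were picked by p or size of change, so such separation follows in part from that choice. Of 21 crypt stem cell genes tested, 9 fell and 0 rose, against a background of 4.21% that fell, with a list median of -1.17. The other members that fell were Slc14a1, Gkn3, Aqp4, Lrig1, Myb and Cdca7. The summed level of the list was 2382 and 2632 normalized reads at 12 h and 6734 and 5784 at 0 h. In untreated fasted and refed mice it was as low at 6 h (2452 and 2769) but not at 2 h (11210 and 6195). Untreated fasted mice at 0 h had 4452 and 6577. Of the 21, 3 fell without the untreated knockout library. Of the 21 genes, 17 were lower at 12 h in both genotypes and 3 were higher in both. Lgr5, the receptor that defines these cells, had few reads, as Smoc2 had at 12 h. Lgr5 was at 47.3 and 11.2 normalized reads at 12 h and 21.8 and 10.2 at 0 h (36 and 12 reads at 12 h, 22 and 9 reads at 0 h). Its 12 h value was the higher in each genotype, and its groups overlapped.

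Mitotic genes were lower as well. The G2/M list covers cyclins, kinases and spindle proteins that are made as cells prepare to divide. Of its 37 genes tested, 10 fell and 0 rose, with a list median of -1.93 (-2.18 in wild type, -1.44 in knockout). Ccnb2, cyclin B2, had 31.6 and 22.4 normalized reads at 12 h and 234 and 178 at 0 h, so that the groups did not overlap (log2 -2.89 ± 0.56, adjusted p = 0.006; 0.049 without the untreated knockout library). Top2a, the alpha form of topoisomerase II and a target of doxorubicin, had 90.7 and 98.2 normalized reads at 12 h and 562 and 345 at 0 h (log2 -2.21 ± 0.53, adjusted p = 0.017; 0.051 without the untreated knockout library). Mki67, which encodes the proliferation marker Ki-67, had 98.6 and 63.6 normalized reads at 12 h and 399.5 and 235 at 0 h (log2 -1.94 ± 0.55, adjusted p = 0.04; 0.11 without the untreated knockout library). Top2a and Mki67 were lower in both 12 h libraries than in either untreated library. The other members that fell were Cenpf, Mad2l1, Anln, Cenpa, Aurkb, Ccna2 and Kif23, which act at the kinetochore, the spindle or in cytokinesis or drive the cell cycle. Ccnb1, Cdk1 and Kif11 had log2 changes of -2.77, -2.04 and -2.22 and did not pass the test. The summed level of the list was 1336 and 1356 normalized reads at 12 h and 5246 and 3792 at 0 h. In untreated fasted and refed mice it was nearly as low at 6 h (1458 and 1528) but not at 2 h (8136 and 5104). Untreated fasted mice at 0 h had 2392 and 5837. Of the 37 genes, 1 fell without the untreated knockout library, and the list median was then -2.13.

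Many promoters of this class carry a cell cycle homology region, a short element close to the transcription start that keeps such genes repressed outside G2 and mitosis. The stretch around it is shown for 6 of the 10 genes that fell. Windows of 250 bases before to 50 after RefSeq start sites (GRCm38.p6) were searched on both strands for TTTGAA or TTCGAA, of which the second reads the same on both strands. It was present in 24 of 32 windows of the G2/M genes tested (75.0%), which covered 30 of the 37 genes, and in 14.3% of windows of all tested genes and 19.2% of all 32851 windows. In the S phase list it was present in 24.3% of 37 windows. The E2F site (TTTCGCGC, TTTGGCGC or TTTCCCGC, both strands) was in 37.8% of the S phase windows, in 3.36% of windows of all tested genes and in 1.84% of all windows. A match describes the letters in the window and not a bound site. The excerpts read 5′ to 3′ on the gene's strand, with the element in capitals.
Ccnb2, chr9:70421533-70421562, minus strand: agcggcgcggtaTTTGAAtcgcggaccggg
Cenpf, chr1:189688067-189688096, minus strand: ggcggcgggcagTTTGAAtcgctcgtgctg
Kif23, chr9:61946780-61946809, minus strand: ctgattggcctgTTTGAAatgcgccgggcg
Cenpa, chr5:30666890-30666919, plus strand: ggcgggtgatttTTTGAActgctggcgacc
Mki67, chr7:135716445-135716504, minus strand: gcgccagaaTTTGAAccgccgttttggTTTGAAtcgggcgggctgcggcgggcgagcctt
Top2a, chr11:99024277-99024336, minus strand: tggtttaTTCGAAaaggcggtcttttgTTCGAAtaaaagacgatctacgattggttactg
In Ccnb2, Cenpf, Kif23 and Cenpa the element began 2 to 16 bases after the start site. In Mki67 and Top2a it lay upstream, and each excerpt holds 2 copies.

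Few S phase and DNA repair genes passed the test. E2f2, a transcription factor that switches on replication genes, had 23.7 and 28.1 normalized reads at 12 h and 340.0 and 449 at 0 h (log2 -3.87 ± 0.43, adjusted p = 0.00015; 0.0038 without the untreated knockout library). Of 38 S phase genes tested, E2f2 alone passed, and the list median was -0.66. E2f1 and Pola1 had log2 changes of -3.57 and -2.84 and did not pass. Of 28 DNA repair genes, 2 fell and 0 rose, against a background of 4.21% that fell, with a median of -0.89. These were Xrcc6, the Ku70 subunit of double-strand break repair, with 103.8 normalized reads in each 12 h library against 283.5 and 274 at 0 h (log2 -1.42 ± 0.34, adjusted p = 0.018), and Ung, a uracil DNA glycosylase, listed at 0 in both 12 h libraries against 37.7 and 31.6 at 0 h (adjusted p = 0.031). Neither passed without the untreated knockout library.

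Targets of p53, the transcription factor that DNA damage stabilises, included 3 that rose and 0 that fell among 31 tested, against a background of 4.78% that rose. The list median was 0.32, and without the untreated knockout library 3 of 31 rose (Btg2, Trp53inp1 and Phlda3), against a background of 1.15%. Cdkn1a, which encodes the cell cycle inhibitor p21, had 8619 and 8617 normalized reads at 12 h and 5322 and 4737 at 0 h (log2 0.78 ± 0.19, adjusted p = 0.017; 0.12 without the untreated knockout library). Trp53inp1, a stress-induced p53 cofactor, had 769 and 734 normalized reads at 12 h and 209 and 402 at 0 h (log2 1.37 ± 0.34, adjusted p = 0.019). Btg2, an antiproliferative regulator, had 2762 and 2605 normalized reads at 12 h and 1357 and 1932 at 0 h (log2 0.73 ± 0.22, adjusted p = 0.046). In all 3 genes both 12 h values exceeded both untreated values. Mdm2 and Ccng1, feedback targets of p53, had log2 changes of 0.62 and 0.32 and did not pass. Among 17 apoptosis effectors 0 rose and 1 fell, the BH3-only gene Bid, with 64.4 and 110.3 normalized reads at 12 h and 227 and 214.5 at 0 h (adjusted p = 0.038; 0.14 without the untreated knockout library). Over all genes tested 4.21% fell. Bax and Bbc3, which promote cell death at mitochondria, had log2 changes of -0.19 and -0.02. Pmaip1, another BH3-only gene, had the highest log2 change of the list, 1.54 ± 0.56, and did not pass (limma adjusted p = 0.097). Of the 17 effectors, 7 were higher at 12 h in both genotypes and 7 were lower in both. Of 9 survival genes, Cflar and Xiap, which restrain caspases, rose by 0.78 ± 0.18 and 0.83 ± 0.23 on the log2 scale (adjusted p = 0.015 and 0.034), and 0 of the 9 did so without the untreated knockout library.

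Paneth cell genes were lower in both genotypes. Lyz1, the lysozyme of Paneth cell granules, had 896.5 and 958 normalized reads at 12 h and 7898 and 4748 at 0 h, and the groups did not overlap (log2 -2.72 ± 0.48, adjusted p = 0.0035; 0.026 without the untreated knockout library). Defa30, an alpha-defensin, had 652 and 984 normalized reads at 12 h and 4513 and 3673 at 0 h (log2 -2.34 ± 0.62, adjusted p = 0.029; 0.13 without the untreated knockout library). Of 16 Paneth markers tested, 3 fell, these 2 and Defa3, and 0 rose, with a list median of -2.38. The count was 1 of 16 without the untreated knockout library. Alpha-defensin genes are near-identical copies, so their reads may be split between them. Goblet markers had 0 genes past the test in either direction (17 tested, median 0.16) and tuft markers likewise (15 tested, median 0.37). Of all genes tested 4.78% rose and 4.21% fell, so 1 call among 18 genes is near those shares. Of 18 enteroendocrine genes, Gcg, the proglucagon gene, fell and Pcsk1, a prohormone convertase, rose (adjusted p = 0.031 and 0.04; 0.034 and 0.24 without the untreated knockout library).

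Absorptive enterocyte genes made up a part of the rises. Of 24 digestive and brush border genes, 9 rose and 0 fell, with a median of 0.67. Mgam, a brush border enzyme that cleaves starch products to glucose, had 105800 and 140200 normalized reads at 12 h and 47410 and 38620 at 0 h (log2 1.51 ± 0.28, adjusted p = 0.0048). Enpep, an aminopeptidase of the brush border, had 24420 and 21480 normalized reads at 12 h and 10390 and 5489 at 0 h (log2 1.60 ± 0.31, adjusted p = 0.0057). Both genes were higher in each 12 h library than in each untreated library, and others that rose were Dpp4, Ace, Ezr, Myo1a, Krt20 and Cdhr5. Sis, the sucrase-isomaltase, did not pass and its groups overlapped, with 58750 and 76920 normalized reads at 12 h and 62990 and 69600 at 0 h (log2 0.02 ± 0.24). Without the untreated knockout library 0 of the 24 passed, with a median of 0.56.

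Nutrient transporters moved in both directions. Slc6a19, the main neutral amino acid transporter of the brush border (chr13:73679745-73704865, mm10), had 34020 and 40700 normalized reads at 12 h and 10530 and 8940 at 0 h (log2 1.94 ± 0.19, adjusted p = 8.6e-05; 0.0032 without the untreated knockout library). Slc13a2, a dicarboxylate transporter for citric acid cycle intermediates (chr11:78397087-78422217), had 9002 and 11240 normalized reads at 12 h and 1073 and 247 at 0 h (log2 4.28 ± 0.46, adjusted p = 0.00012; 0.002 without the untreated knockout library). Slc5a12, a sodium-coupled lactate transporter, had 1775 and 1045 normalized reads at 12 h and 363 and 48.5 at 0 h (log2 3.34 ± 0.59, adjusted p = 0.0035). The 12 h values of these 3 genes were all above the untreated ones. Of 24 transporters tested, 7 rose and 2 fell, and without the untreated knockout library 3 rose and 0 fell. The sugar transporters Slc5a1 and Slc2a2 were among the rises, and the peptide transporter Slc15a1 and the amino acid transporter Slc7a8 were the others. Slc16a1, a monocarboxylate transporter, had 1509 and 2054 normalized reads at 12 h and 3079 and 3408 at 0 h (log2 -0.88 ± 0.18, adjusted p = 0.0082), and Slc1a1, a glutamate transporter, was the other fall.

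Fat absorption genes rose in part. For the counts below, 4.78% of all genes tested rose and 4.21% fell. Dgat2, which makes triglyceride in the last step of its synthesis (chr7:99153658-99182719), had 51400 and 57430 normalized reads at 12 h and 6212 and 6988 at 0 h, which is 8.25-fold higher (log2 3.04 ± 0.31, adjusted p = 8.6e-05; 0.002 without the untreated knockout library). Creb3l3, a transcription factor of lipoprotein genes, had 18210 and 20420 normalized reads at 12 h and 9052 and 9049 at 0 h (log2 1.09 ± 0.18, adjusted p = 0.0023). Apob, the structural protein of chylomicrons, had 173200 and 169400 normalized reads at 12 h and 84520 and 71850 at 0 h (log2 1.14 ± 0.28, adjusted p = 0.019; 0.13 without the untreated knockout library). None of these 3 overlapped between the groups. Of 25 fat absorption genes, 6 rose and 0 fell, Apoa1, Mogat2 and Soat2 being the others, and 2 rose without the untreated knockout library. In the fatty acid synthesis list 0 of 16 rose and 4 fell, and 1 fell without the untreated knockout library. Fads2, the delta-6 desaturase, had 39.4 and 87.9 normalized reads at 12 h and 608 and 432 at 0 h (log2 -3.10 ± 0.44, adjusted p = 0.00097; 0.0072 without the untreated knockout library), with Fads1, Elovl5 and Me1 the other falls. Of 23 fat oxidation genes, 1 rose and 2 fell, against 0 and 1 without the untreated knockout library, among them Ehhadh, a peroxisomal enzyme, which fell (log2 -0.54 ± 0.16, adjusted p = 0.043; 0.25 without the untreated knockout library).

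**Figure D2:**
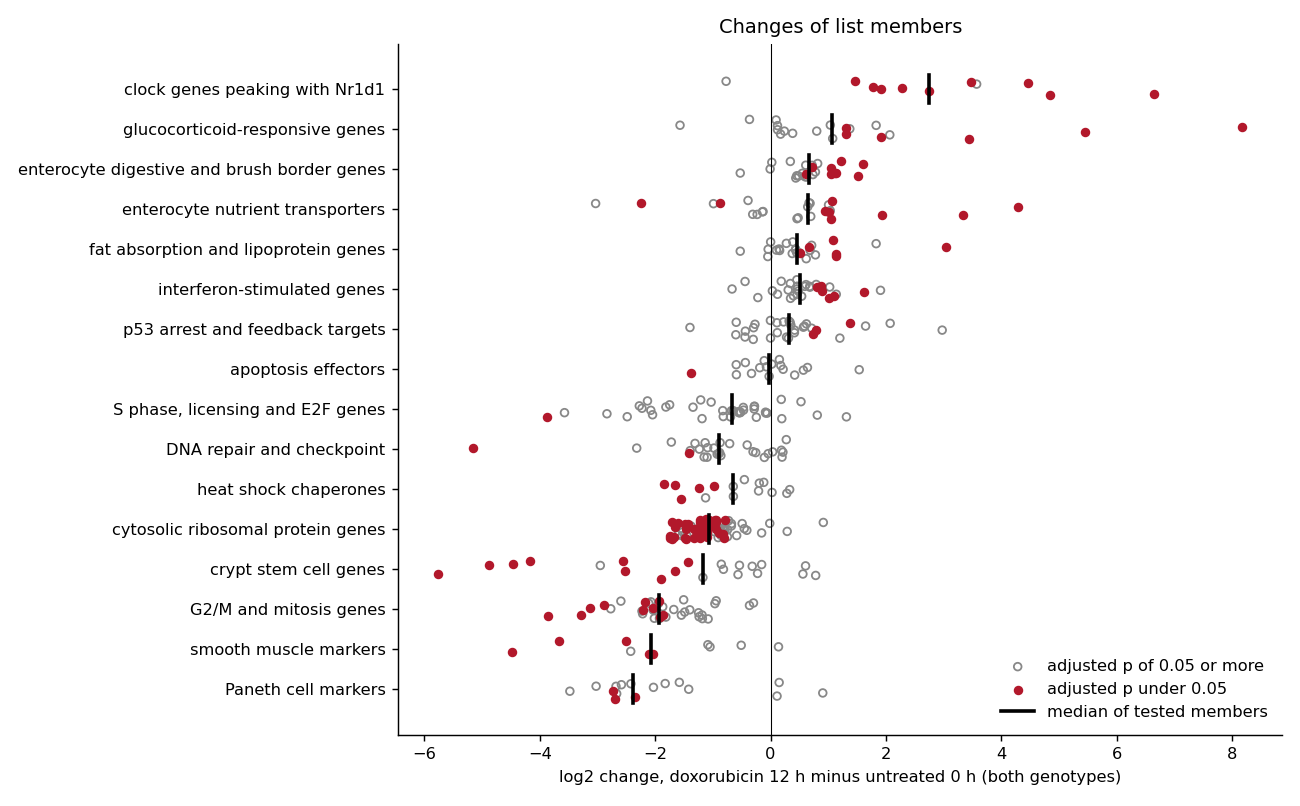
Log2 change (doxorubicin 12 h minus untreated 0 h, both genotypes together) of the tested members of 16 gene lists, with filled points for members with adjusted p under 0.05, open points for the others and a bar at the list median. Medians run from 2.75 for the clock genes at the top to -2.38 for the Paneth markers at the bottom.

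Most of the clock genes listed as peaking with Nr1d1 rose, although Nr1d1 itself did not. The hour at which these genes peak was not tested. The core clock couples the activators Arntl and Clock to the repressors Per and Cry and to output factors such as Dbp, Tef and Hlf, which rise and fall once a day. Per2 (chr1:91415982-91459324), a repressor of the core loop, had 870.2 and 943 normalized reads at 12 h and 36.7 and 44.0 at 0 h, 22-fold higher (log2 4.46 ± 0.34, adjusted p = 6.8e-06; 0.00026 without the untreated knockout library). Tef, an output factor, had 2260 and 2517 normalized reads at 12 h and 282 and 164 at 0 h (log2 3.47 ± 0.39, adjusted p = 0.00017). Per3 had 259 and 268 normalized reads at 12 h and 5.95 and 0 at 0 h (log2 6.65 ± 0.84, adjusted p = 0.00032; 6 and 0 reads at 0 h). Each of these 3 was far above its untreated values in both genotypes. Dbp, another output factor, had 354 and 813 normalized reads at 12 h and 51.6 and 5.64 at 0 h (log2 4.85 ± 1.09, adjusted p = 0.013; 0.16 without the untreated knockout library). Of 11 genes listed as peaking with Nr1d1, 9 rose and 0 fell, with a list median of 2.75 (2.13 in wild type, 2.86 in knockout), and without the untreated knockout library 5 rose. Hlf, Per1, Nr1d2, Bhlhe40 and Usp2 were the others that rose. The summed level of the list was 12050 and 16990 normalized reads at 12 h and 5633 and 3292 at 0 h. Untreated fasted and refed mice also had high sums, 13000 and 9720 at 2 h and 12270 and 11450 at 6 h. Untreated fasted mice at 0 h had 5558 and 5417. Nr1d1 itself, which encodes the repressor REV-ERB alpha, had 421 and 983.5 normalized reads at 12 h and 1838 and 656 at 0 h, so the genotypes moved in opposite directions (log2 -0.77 ± 0.45). Arntl, the activator of the opposite phase, fell, with 268 and 231 normalized reads at 12 h and 715 and 845.5 at 0 h (log2 -1.64 ± 0.44, adjusted p = 0.03; 0.2 without the untreated knockout library).

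The D-box, the element bound by Dbp, Tef and Hlf, is shown for Per3 because its window held 2 copies. The letters TTATGTAA or TTACGTAA, searched on both strands, were in 1 of 11 windows of the genes listed with Nr1d1 (9.09%), in 0.67% of windows of all tested genes and in 1.06% of all windows. The 11 windows covered 9 genes. The E-box CACGTG, which binds Arntl with Clock, was in 4 of the 11 windows (36.4%), which belonged to 3 genes. This E-box was in 9.58% of windows of genes that rose, 9.74% of windows of all tested genes and 7.15% of all windows. It is shown for Tef and Per1.
Per3 D-box, chr4:151044836-151044897, minus strand: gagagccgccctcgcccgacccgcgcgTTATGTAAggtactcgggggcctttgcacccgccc
Per3 D-box, chr4:151044789-151044850, minus strand: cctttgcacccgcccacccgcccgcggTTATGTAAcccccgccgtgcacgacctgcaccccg
Tef E-box, chr15:81802519-81802578, plus strand: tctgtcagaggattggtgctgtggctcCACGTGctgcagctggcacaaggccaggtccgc
Per1 E-box, chr11:69098756-69098815, plus strand: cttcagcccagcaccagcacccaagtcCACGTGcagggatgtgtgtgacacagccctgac
The elements of Per3 began at positions -205 and -158 from its start site, that of Tef at -127 and that of Per1 at -166.

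Glucocorticoid-responsive genes rose in part. The summed level of the list was 47850 and 34470 normalized reads at 12 h and 12790 and 13810 at 0 h. Untreated fasted mice at 0 h also had high sums, 39370 and 41020. Untreated fasted and refed mice had 14180 and 16010 at 2 h and 8340 and 8155 at 6 h. Fkbp5, a co-chaperone of the glucocorticoid receptor that the receptor itself induces (chr17:28399094-28517527), had 5200 and 4132 normalized reads at 12 h and 117 and 94.8 at 0 h, 43.6-fold higher (log2 5.45 ± 0.88, adjusted p = 0.002; 0.028 without the untreated knockout library). Zbtb16, a zinc finger repressor induced by glucocorticoids, had 465 and 179 normalized reads at 12 h and 0 in both untreated libraries (adjusted p = 0.003). Against a floor of 3 reads per library it was at least 156-fold higher in wild type and at least 52.7-fold higher in knockout. Mt1, a metal-binding protein, had 6887 and 8236 normalized reads at 12 h and 782 and 616 at 0 h (log2 3.44 ± 0.95, adjusted p = 0.034; 0.18 without the untreated knockout library). All 3 were higher in both 12 h libraries. Of 20 genes tested, 6 rose and 0 fell, with a median of 1.06, and the others were Per1, Tsc22d3 and Bcl6. Without the untreated knockout library 3 rose.

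Most ribosomal protein and ribosome biogenesis genes were lower at 12 h. The 19 translation factors had a list median of only -0.14, with 13 lower in both genotypes and 3 higher in both. Of 72 cytosolic ribosomal protein genes tested, 38 fell and 0 rose, with a median of -1.07 (-0.78 in wild type, -1.33 in knockout), and 2 fell without the untreated knockout library. Rpl22 had 594 and 494 normalized reads at 12 h and 1481 and 1837 at 0 h (log2 -1.60 ± 0.21, adjusted p = 0.00044; 0.015 without the untreated knockout library). Rpl26 had 790.0 and 567.5 normalized reads at 12 h and 1363 and 1805 at 0 h (log2 -1.23 ± 0.20, adjusted p = 0.0023; 0.051 without the untreated knockout library). Neither gene overlapped between the groups. Ribosomal protein genes have many processed pseudogenes, so their reads may be shared with copies. Eef1a1, an elongation factor, had 19860 and 20420 normalized reads at 12 h and 36130 and 40610 at 0 h (log2 -0.93 ± 0.21, adjusted p = 0.012; 0.11 without the untreated knockout library), and it was 1 of 4 falls among 19 translation factors, of which 0 remained past the threshold without the untreated knockout library. Of 35 ribosome biogenesis genes, 5 fell and 0 rose, with a median of -0.79, and 1 fell without the untreated knockout library. Nolc1, a nucleolar chaperone, had 48.6 and 46.7 normalized reads at 12 h and 226 and 152 at 0 h (log2 -1.94 ± 0.35, adjusted p = 0.0043).

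Transcript length moved with these changes across all genes. Among 11816 tested genes with an annotated length, the median log2 change was -0.215 in the shortest of 5 equal classes (255 to 1974 nt) and 0.187 in the longest (5245 nt and above). In the shortest class 7.44% of genes fell and 2.24% rose, and in the longest 1.52% fell and 8.34% rose. The median longest transcript of the ribosomal protein genes was 1108 nt, and 60 of them lay in the shortest class, where 30 fell (50%), while 6.33% of the 2306 other genes of that class fell. The Paneth markers had a median longest transcript of 515 nt, which also lies in the range of the shortest class. The part of transcript length in these results was not tested.

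**Figure D3:**
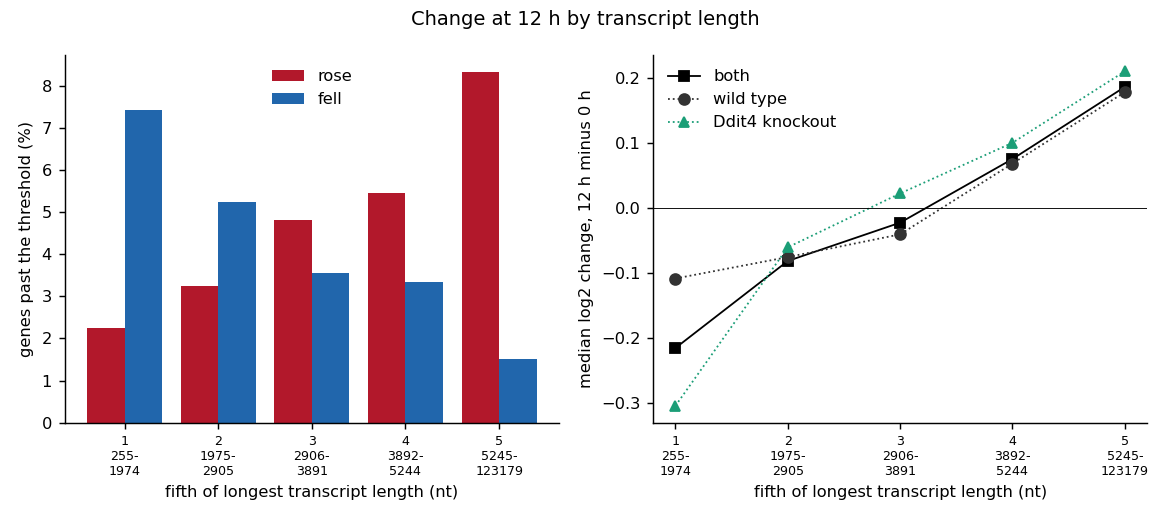
Tested genes in 5 classes by the length of their longest annotated transcript (class and range in nt on the horizontal axes). Left, the percentage of genes that rose (red) or fell (blue) at 12 h; right, the median log2 change (12 h minus 0 h) for both genotypes together and for each, which increases from -0.215 to 0.187 with length.

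Heat shock chaperones fell in part: of 15 tested, 5 fell and 0 rose, with a median of -0.64, and 4 fell without the untreated knockout library. Hspd1, the mitochondrial chaperonin, had 789 and 748 normalized reads at 12 h and 2411 and 2104 at 0 h (log2 -1.55 ± 0.29, adjusted p = 0.0051). Hsp90ab1, a cytosolic chaperone, had 3009 and 2864 normalized reads at 12 h and 7976 and 6024 at 0 h (log2 -1.24 ± 0.25, adjusted p = 0.0083). The groups did not overlap in either gene, and the other falls were Hspe1, Hsph1 and Hsp90aa1. The stress-inducible Hspa1a and Hspa1b did not pass, with log2 changes of -1.13 and -0.19.

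Drug handling genes moved in both directions. Abcb1a, which encodes P-glycoprotein, an efflux pump that carries doxorubicin, had 6764 and 10480 normalized reads at 12 h and 2184 and 1474 at 0 h (log2 2.23 ± 0.47, adjusted p = 0.0092; 0.097 without the untreated knockout library). Abcg2, another efflux pump, had 2431 and 2717 normalized reads at 12 h and 4685 and 5018 at 0 h (log2 -0.92 ± 0.19, adjusted p = 0.0082; 0.06 without the untreated knockout library). Cyp2c55, a cytochrome P450, had 242 and 373 normalized reads at 12 h and 2894 and 2079 at 0 h (log2 -3.03 ± 0.60, adjusted p = 0.0073; 0.068 without the untreated knockout library). These 3 had no overlap between groups. Of 28 xenobiotic genes, 5 rose and 2 fell, with the receptor gene Nr1i2, Abcc2, Cyp3a13 and Akr1b7 as the other rises, and 1 rose and 0 fell without the untreated knockout library. Of 23 glutathione defence genes, 2 rose and 2 fell, and 0 passed without the untreated knockout library. Gclc, the catalytic subunit of glutathione synthesis, had 2419 and 2268 normalized reads at 12 h and 677 and 444 at 0 h (log2 2.09 ± 0.44, adjusted p = 0.009), and Nqo1, a quinone reductase, had 356 and 259 at 12 h and 812 and 661.5 at 0 h (log2 -1.27 ± 0.33, adjusted p = 0.026).

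Antiviral and mucosal defence genes differed in direction. Of 30 interferon-stimulated genes, 6 rose and 0 fell, with a median of 0.51. Irf7, which amplifies interferon induction, had 4502 and 6611 normalized reads at 12 h and 2301 and 3164 at 0 h (log2 1.02 ± 0.22, adjusted p = 0.0096). Usp18, which limits interferon signalling, had 874 and 1758 normalized reads at 12 h and 260 and 623 at 0 h (log2 1.62 ± 0.44, adjusted p = 0.033; 0.078 without the untreated knockout library). In these 2 genes the knockout library was higher than the wild type in each condition, the groups did not overlap, and 1 of the 30 rose without the untreated knockout library. Il15, a cytokine that sustains intraepithelial lymphocytes, had 1124 and 1144 normalized reads at 12 h and 384 and 424.5 at 0 h (log2 1.49 ± 0.30, adjusted p = 0.0083; 0.028 without the untreated knockout library). Of 17 lymphocyte markers, 1 rose, Zap70 (adjusted p = 0.02; 0.13 without the untreated knockout library), and the summed level of the list was 8158 and 10420 normalized reads at 12 h and 5246 and 9327 at 0 h. Over all genes tested 4.78% rose, so 1 rise among 17 genes is near that share. Of 14 mucosal defence genes 3 fell and 0 rose. These were Sprr2a1, Sprr2a2 and Sprr2a3, small proline-rich proteins with antibacterial activity, and 3 of 14 fell without that library as well. Sprr2a3 had 230 and 399 normalized reads at 12 h and 2505 and 8426 at 0 h (log2 -3.92 ± 0.46, adjusted p = 0.00021; 0.0083 without the untreated knockout library). The 3 genes are near-identical, and the annotated spans of Sprr2a1 and Sprr2a2 overlap, so their reads cannot be assigned with certainty.

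Among other genes of the largest rises and falls, Clca3b had 6.57 and 86.0 normalized reads at 12 h and 414 and 378 at 0 h (log2 -3.95 ± 0.84, adjusted p = 0.0099). Cdo1, which encodes cysteine dioxygenase, had 1 and 3 reads at 12 h and 106 and 69 reads at 0 h (adjusted p = 0.013; 0.06 without the untreated knockout library). Both lay below all their untreated values. Abca1, the cholesterol efflux pump, had 411 and 943 normalized reads at 12 h and 96.2 and 22.6 at 0 h (log2 3.70 ± 0.87, adjusted p = 0.016; 0.21 without the untreated knockout library). Eif4ebp3, a translation repressor of the 4E-BP family that mTORC1 inactivates, had 130.1 and 80.4 normalized reads at 12 h and 15.9 and 2.26 at 0 h (log2 3.80 ± 0.70, adjusted p = 0.0047; 0.082 without the untreated knockout library). In the same list of mTORC1 brakes, Deptor, an mTOR inhibitor, had 294.5 and 116 normalized reads at 12 h and 822 and 774 at 0 h (log2 -2.10 ± 0.39, adjusted p = 0.0047; 0.052 without the untreated knockout library), and the other 12 of 14 tested did not pass. Usp35, Hspa12a and Itgb2l rose by 3.66 ± 0.61, 3.55 ± 0.83 and 3.54 ± 1.02 on the log2 scale (adjusted p = 0.0023, 0.015 and 0.041). Without the untreated knockout library the adjusted p of Hspa12a was 0.17, and edgeR gave Itgb2l an adjusted p of 0.054.

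Markers of non-epithelial cells moved with the comparison in 1 list in particular. Of 10 smooth muscle markers, 5 fell (Acta2, Myh11, Actg2, Des and Lmod1), with a median of -2.07 that was -0.39 in wild type and -3.52 in knockout. Actg2, enteric smooth muscle actin, had 17.1 and 6.54 normalized reads at 12 h and 76.3 and 284.5 at 0 h (log2 -3.67 ± 0.64, adjusted p = 0.0032; 0.069 without the untreated knockout library). The untreated knockout library had the highest value of 4 for Actg2, and likewise for Myh11, the smooth muscle myosin heavy chain, with 99.9 and 77.6 normalized reads at 12 h and 209 and 693 at 0 h. The summed level of the list was 3631 and 4029 normalized reads at 12 h and 5349 and 8160 at 0 h, and 0 of 10 passed without the untreated knockout library. Of 12 macrophage markers only Mertk passed. Mertk, a receptor for engulfing dead cells, had 7543 and 8254 normalized reads at 12 h and 1821 and 1495 at 0 h (log2 2.26 ± 0.23, adjusted p = 8.6e-05; 0.0032 without the untreated knockout library). The macrophage marker C1qa had 269.5 and 55.2 normalized reads at 12 h and 123 and 55.3 at 0 h, so its groups overlapped. Pancreatic Cela2a was present in the wild-type libraries, at 302 at 12 h and 190.3 at 0 h, against 1.87 and 5.64 in the knockout libraries. The part of these other cells in the comparison was not tested.

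The change at 12 h was next compared between genotypes. In a test of the difference itself (knockout change minus wild-type change), 0 of 11939 genes passed (0%) in limma and in edgeR, 233 had an unadjusted p under 0.05, and DESeq2 called 1. The smallest adjusted p in limma was 1.0. Olfm4 changed by -6.25 in knockout and -5.26 in wild type on the log2 scale, and Per2 was 4.39 higher in knockout and 4.53 higher in wild type. Slc13a2 was 5.50 higher in knockout and 3.07 higher in wild type, with the untreated knockout value of 247 below the wild-type value of 1073.

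**Figure D4:**
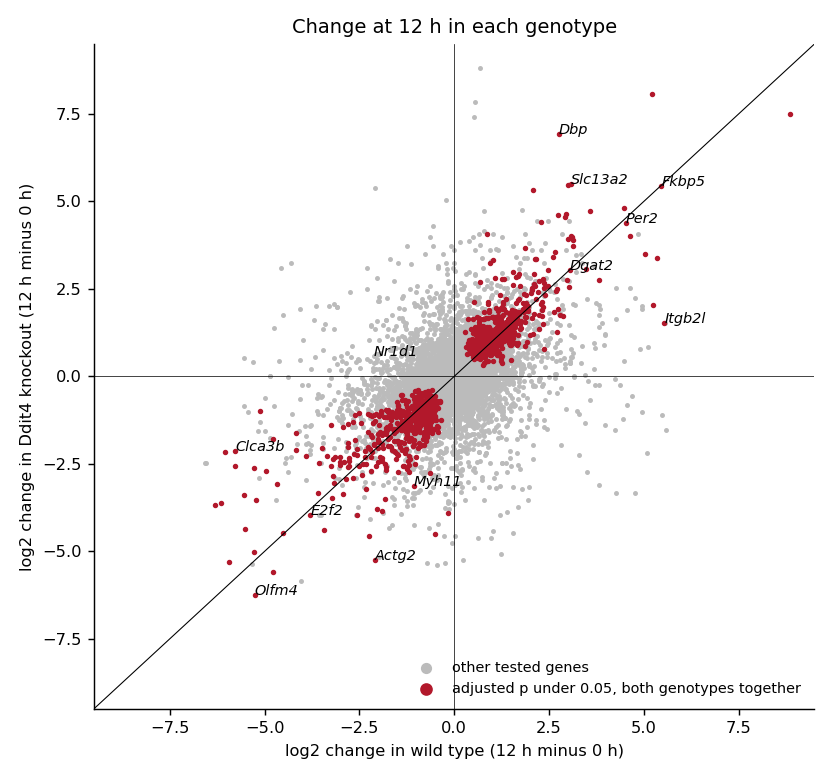
Log2 change from untreated 0 h to doxorubicin 12 h in wild type (horizontal) and in Ddit4 knockout (vertical) for each of 11939 tested genes, with genes past the threshold in red and the diagonal of equal change. Olfm4 lies at -5.26 and -6.25, Per2 at 4.53 and 4.39 and Nr1d1 at -2.12 and 0.58.

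The 12 h libraries were next compared with those of the neighbouring times. Compared with 6 h, 0 genes passed (0%) in limma and in edgeR, 1126 had an unadjusted p under 0.05, DESeq2 called 96, and the smallest adjusted p in limma was 0.059. Compared with 24 h, 15 genes passed (0.126%), of which 8 were higher at 12 h (0.067%) and 7 lower (0.0586%). DESeq2 called 243 and edgeR 9, and the count was 2 without the knockout library at 12 h or without that at 24 h. Rnase4, a secreted ribonuclease (chr14:51091077-51106151), had 275 and 199 normalized reads at 12 h and 1062 and 1279 at 24 h (log2 -2.31 ± 0.25, adjusted p = 0.00051). Ang, which encodes angiogenin and whose annotated span lies inside that of Rnase4, was also lower at 12 h (log2 -1.73 ± 0.30, adjusted p = 0.035). Reads of the 2 genes may be shared. E2f2 had 23.7 and 28.1 at 12 h and 118 and 147 at 24 h (log2 -2.31 ± 0.43, adjusted p = 0.048). Each of these 3 was lower in both 12 h libraries than in both 24 h libraries.

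Cyp1a1, a cytochrome P450 induced through the aryl hydrocarbon receptor, had 1610 and 1442 normalized reads at 12 h and 22.7 and 3.53 at 24 h (log2 7.20 ± 1.06, adjusted p = 0.013). Against untreated intestine, at 1167 and 704 normalized reads, it did not pass the test (log2 0.75 ± 1.06). Gclc had 2419 and 2268 at 12 h and 591 and 345.5 at 24 h (log2 2.37 ± 0.44, adjusted p = 0.048). In both genes the 12 h values exceeded the 24 h values. Others higher at 12 h were Cyp3a44, Acsf2, Pcx, Slc4a7 and Rfx2, and others lower were Pecr, Pde3a and Prelp, of which Pcx, Slc4a7, Rfx2, Pde3a and Prelp were named after their values were seen. The comparisons with 0 h and with 24 h share the 12 h libraries.

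**Figure D5:**
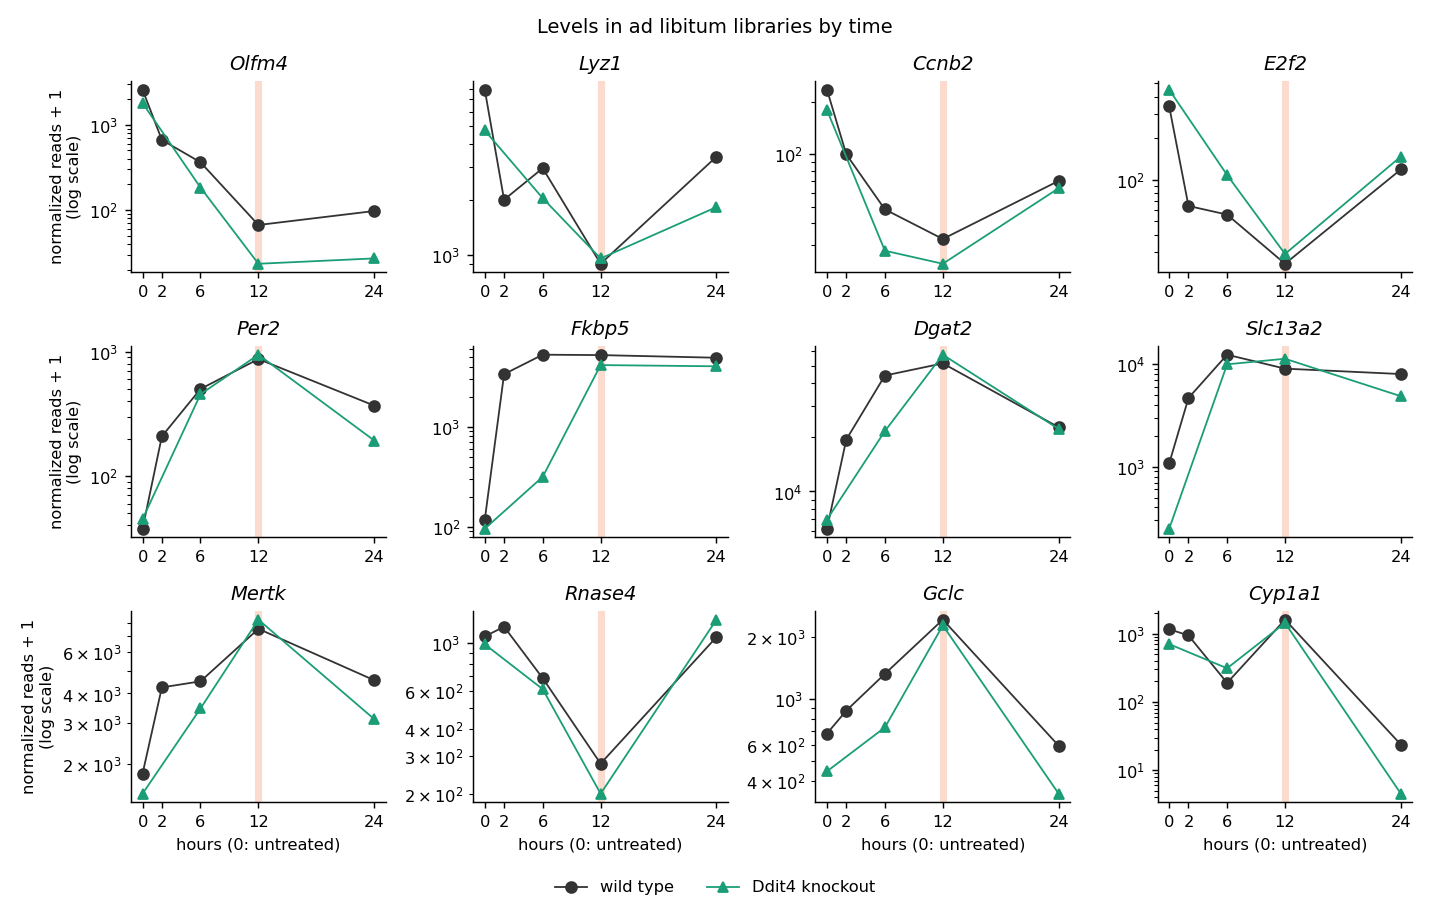
Normalized reads + 1 on log axes at 0 h (untreated) and 2, 6, 12 and 24 h after doxorubicin in ad libitum libraries, wild type as circles and Ddit4 knockout as triangles (no knockout library at 2 h), 1 library per point, with the 12 h time shaded. Olfm4, E2f2 and Rnase4 are at their lowest and Mertk and Per2 at their highest at 12 h in both genotypes, as for Olfm4 at 65.7 and 22.4.

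Olfm4 had 361.5 and 182 normalized reads at 6 h (wild type, knockout), 65.7 and 22.4 at 12 h, and 96.3 and 26.1 at 24 h. Fkbp5 had 5247 normalized reads in the wild-type library and 315 in the knockout library at 6 h, and 5200 and 4132 at 12 h. The difference at 6 h is between single libraries and was not tested. Mertk had 4505 and 3452 at 6 h, 7543 and 8254 at 12 h, and 4554 and 3109 at 24 h, so that in both genotypes its 12 h value stood above those at 6 h and 24 h.

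Feeding before the drug was compared at 12 h by setting the ad libitum libraries against those from prefasted mice. These mice were fasted for 24 h beforehand and are labelled as fasted and refed. In this comparison 0 genes passed (0%) in limma and in edgeR, 421 had an unadjusted p under 0.05, DESeq2 called 2, and the smallest adjusted p in limma was 0.67. Olfm4 had 65.7 and 22.4 normalized reads in the ad libitum libraries and 77.8 and 85.0 in the prefasted ones, and Per2 had 870.2 and 943 in the ad libitum libraries and 465 and 682.5 in the prefasted ones. The title of the prefasted wild-type library conflicts with its drug label, so this comparison rests on the label.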

How the data were processed

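RNA from whole proximal small intestine was poly-A selected and sequenced by the authors from non-directional libraries, per the labels' protocols, so reads of genes that overlap on opposite strands cannot be told apart. Trim Galore, STAR, DESeq2 and the mm10 build are named in the submitters' processing notes, and the counting tool and annotation are not given in the sources used here. The deposited table holds signal values for 16259 genes, which are counts divided by 1 size factor per library. Whole reads were recovered by dividing each library by its smallest step (100% of values within 0.01 of a read).

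Values were tested as log2(value + 1) in 11939 genes with a mean of at least 10, with limma 3.58.1 (eBayes with trend, R 4.3.3). The model held 12 conditions and genotype, was fitted on 23 libraries of 11418115 to 23428519 reads, and left 10 residual degrees of freedom (9 for the genotype difference). Tests were two-sided with Benjamini-Hochberg adjustment and a threshold of 0.05, and errors of log2 changes are standard errors. Samples were grouped by the labels, and each knockout library is paired with its condition's wild-type library through the genotype term, which is not a pairing of animals. edgeR 4.0.16 and DESeq2 1.42.0 were run on recovered reads as alternatives, and the code was tested on simulated data. Positions and lengths come from GENCODE M21 and promoters from RefSeq (GRCm38.p6).

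Genes and 61 gene lists were chosen with earlier results of these data known. Named were Ddit4, the 12 largest rises and falls among significant genes averaging 50 normalized reads or more and moving alike in both genotypes (unnamed gene models passed over), up to 5 in each direction for the other comparisons, up to 4 members per list by p, and defining markers; other members are named with their list. Results of some genes, among them 1 of the 12 largest falls, are not reported here.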

Additional observations from a re-analysis of the deposited data

How the results depend on the processing

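The main count of 1074 genes stayed within 1.5 times under another pseudocount, filter or scaling, edgeR and DESeq2. It was 1861 with ad libitum libraries only, 1830 with the 4 libraries of the comparison only and 2277 with array weights, and 102 (65 higher, 37 lower) excluding the 3 libraries that lack Y-linked reads. Leaving out 1 library at a time gave 145 to 1303. Without the genotype term, which is the replicate block of this design, the count was 939. Against 6 h, DESeq2 called 96, and leaving out 1 library gave 0 to 6. Against 24 h, a pseudocount of 5 gave 23, edgeR 9 and DESeq2 243, and leaving out 1 library gave 2 to 30. Against prefasted mice DESeq2 called 2 and leaving out 1 library gave 0 to 2, and for the genotype difference DESeq2 called 1 and leaving out 1 library gave 0, where the 4 libraries of the comparison could not be left out because the term could not be fitted. The cause of these differences was not tested.

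Of the 132 named genes past the threshold, 0 reversed direction under the alternatives run. Most of these genes were chosen by p or size of change in the same libraries, so this follows largely from the choice. The 24 largest rises and falls were also chosen for 1 direction in both genotypes. Significance was lost by 103 without the knockout library at 12 h, 69 without the wild-type library at 12 h, 84 without the untreated knockout library, 77 without the untreated wild-type library, and 101 excluding the 3 libraries that lack Y-linked reads. With 2 libraries per condition and 14009032 to 22103214 reads each, genes near 1 read per library such as Cdo1 give no precise fold.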

Other observations

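Hypoxia-responsive genes included 3 that rose and 1 that fell among 18 tested. Vegfa, an angiogenic growth factor, had 2135 and 2709 normalized reads at 12 h (wild type, knockout) and 832 and 752 at 0 h (limma log2 1.60 ± 0.28, adjusted p = 0.0031; 0.034 without the untreated knockout library). Pdk1, which keeps pyruvate out of mitochondria, had 133 and 177 normalized reads at 12 h and 456 and 512.5 at 0 h (log2 -1.65 ± 0.24, adjusted p = 0.001; 0.017 without the untreated knockout library). In neither gene did the groups overlap, and Epas1 and Egln1 were the other rises. Leaving out the untreated knockout library left 1 rise and 1 fall. Cholesterol synthesis was represented by 24 genes, of which Msmo1 was 1 of 2 that rose and 3 fell (Idi1, Cyp51 and Mvd). Of 22 endoplasmic reticulum stress genes, 2 rose (Herpud1 and Sel1l) and 2 fell (Pdia4 and Pdia6), and of 19 ATF4 targets 2 rose (Trib3 and Slc3a2). Of 12 duodenal iron genes, Ireb2 rose and Tfrc, the transferrin receptor, fell. With the same library left out, 1 gene for cholesterol synthesis was past the threshold, a rise, 1 endoplasmic reticulum gene rose and 1 fell, and 0 ATF4 targets and 0 iron genes passed.

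Among signalling lists, Klf4 and Fosl2 rose of 18 immediate early genes, Foxo1 and Bcl6 of 15 FOXO-responsive genes, and Bmp4 of 23 WNT pathway genes, while Hes1 fell of 11 Notch pathway genes. Of 20 inflammatory genes, Il15 and Nfkb1 rose and Ccl25 fell. Pcx rose and Pfkl fell of 19 sugar handling genes. Uqcrc2 and Uqcrfs1 fell of 28 oxidative phosphorylation genes, and Ctsl rose of 22 autophagy and lysosome genes. Cidec rose of 10 adipocyte markers and Cenpa fell of 4 histone genes. Over all genes tested 4.78% rose and 4.21% fell, so 1 call among 22 or 23 genes is near that share. Without the untreated knockout library there was 1 rise each among the immediate early, inflammatory and sugar handling genes, and 0 genes passed in the other lists of this paragraph. In limma 0 genes passed in the lists of regenerating epithelium (15 tested), MHC class I (19), MHC class II (7), B cells (6), plasma cells (6), neutrophils and mast cells (4), fibroblasts (11), endothelium (10), enteric neurons and glia (3), pancreatic acini (17), erythroid cells (4), Brunner glands (2), Schlafen genes (6) and Y-linked genes (4). The last of the 61 lists, a single transcript, had no gene tested.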
